A study of Homo sapiens with 102 samples.

Results

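H3K4me2 and H3K36me2 were followed through the cell cycle in 12 of the 102 libraries of the series, each of which counts the reads of short position codes on a human artificial chromosome (HAC). The 12 libraries are all those of these 2 antibodies from cells labelled thymidine, colcemid or colcemid release, and come from 2 lines named HAC 1-20 and HAC 4-65. HT1080, an established human fibrosarcoma cell line, carried the HACs, and each line is 1 clone with its own arrangement of repeats. Thymidine holds cells at the G1/S border, colcemid arrests them in metaphase, and the release cells were taken 3 h after colcemid was washed out, when they have entered G1. Every combination of line, mark and condition had 1 library, made from the pooled DNA of 3 ChIP reactions, so how much single reactions vary cannot be seen and no p-value is given. An exact permutation of the 3 conditions within the 2 lines could not go below p = 0.0556. Libraries of the same marks from untreated cells and from cells given a control siRNA (siControl), neither of which was synchronised, served as the background: a change between conditions was read against the change between these 2 libraries.

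The HACs are arrays of synthetic alphoid repeats, the satellite DNA of human centromeres. Codes named T lie in CenU repeats, which carry the box that CENP-B binds and can take up CENP-A, the form of histone H3 found at working centromeres. Codes named L lie in NCU repeats, where this box is mutated. H3K4me2 is written by the MLL family of methyltransferases and is known from the chromatin between CENP-A blocks of natural centromeres, where it has been linked to the recruitment of HJURP, the chaperone that deposits CENP-A. H3K36me2 is written by enzymes such as ASH1L and NSD proteins and is a mark of open, transcribed chromatin that also occurs on alphoid DNA. CENP-A is replenished in G1, which is why the release cells are compared with metaphase cells.

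All position codes are 23 bases long. T codes share a frame, and L codes share another. The T codes differ at 6 positions, 9, 10, 14, 15, 19 and 20 counted from the 5′ end, which are written in capitals below. The codes shown are those with the clearest changes described further on, together with T001 and T072, whose names are in doubt.
T001: ggggaaaaTAcccTCtttTCggg
T072: ggggaaaaAAcccAAtttAAggg
T065: ggggaaaaTAcccAAtttAAggg
T080: ggggaaaaTAcccCCtttCCggg
T112: ggggaaaaTGcccCGtttCGggg
T116: ggggaaaaTCcccACtttACggg
T009: ggggaaaaAAcccGAtttGAggg
T043: ggggaaaaAGcccGGtttGGggg
T046: ggggaaaaAGcccCTtttCTggg
The codes listed for T001 and T072 stand in each other's primers, the only 2 of 224 codes with a listed primer for which this was so. In the 12 libraries T001 took 0.478% to 1.98% of T reads and T072 took 0.0158% to 0.0752%. Names are given as in the deposited files. T001 belongs to neither of the groups of dense and sparse codes used below, so the exchange does not touch their values. It would touch values given by run of code numbers or by pairs of adjacent number, where T001 is used under its deposited name.

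A code counted as carried by a line where its median share was at least 0.1% of T reads over the 49 libraries of that line. HAC 1-20 carried 61 T codes, T001 and codes between T065 and T128, and HAC 4-65 carried 75, between T001 and T095. T codes that a line did not carry took 0.59% to 1.17% of T reads in the 12 libraries. Matched reads per library were 27049 to 863282, with a median of 432658. The 4 shallow libraries were those of HAC 4-65 after thymidine, with 56636 reads for H3K4me2 and 27049 for H3K36me2, and after release, with 59319 and 40970. The background libraries differed in depth too, and the shallowest were H3K36me2 of untreated HAC 1-20 cells with 5154 reads, H3K4me2 of the same cells with 26379 and H3K4me2 of siControl HAC 4-65 cells with 28818. Carried codes were split into dense, middle and sparse by their CENP-A density in untreated cells, with 20, 21 and 20 codes in HAC 1-20 and 25 codes each in HAC 4-65. In HAC 4-65, 20 of the dense codes lay between T030 and T050 and 13 of the sparse codes between T002 and T014. In HAC 1-20, 11 dense codes lay between T070 and T083 and 9 between T111 and T123, and 13 of the sparse codes lay between T094 and T109.

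The H3K4me2 library of HAC 4-65 after release stood apart. Its code shares scattered around the other 6 conditions with an SD of 2.89 on the log2 scale, the highest of 98 libraries, while the other 11 libraries had SDs of 0.26 to 1.13. Libraries of other antibodies came close to it, with SDs of 2.82 for H3K14ac after release in HAC 1-20 and of 2.75 for H4K8ac after release and 2.70 for H3K14ac with siHJURP in HAC 4-65. In this library 29 of the 75 carried codes had 31 reads or fewer and the other 46 had 96 or more, with none between. The 29 codes had a median of 7 reads there, against 113 after thymidine and 1577 in colcemid, and a median of 134 reads for H3K36me2 after release. They were 10 dense, 7 middle and 12 sparse codes. Together they held 22.6% of H3K4me2 T reads after thymidine, 25.3% in colcemid and 1.06% after release. L codes scattered in the same library too, with an SD of 2.40, against 3.07 for H4K8ac after release in HAC 4-65. The main results that rest on this library are given over all carried codes and over the 46 codes. The 46 codes were picked by their reads in this same library. Values over them therefore favour a rise to release and are no independent check.

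**Figure D1:**
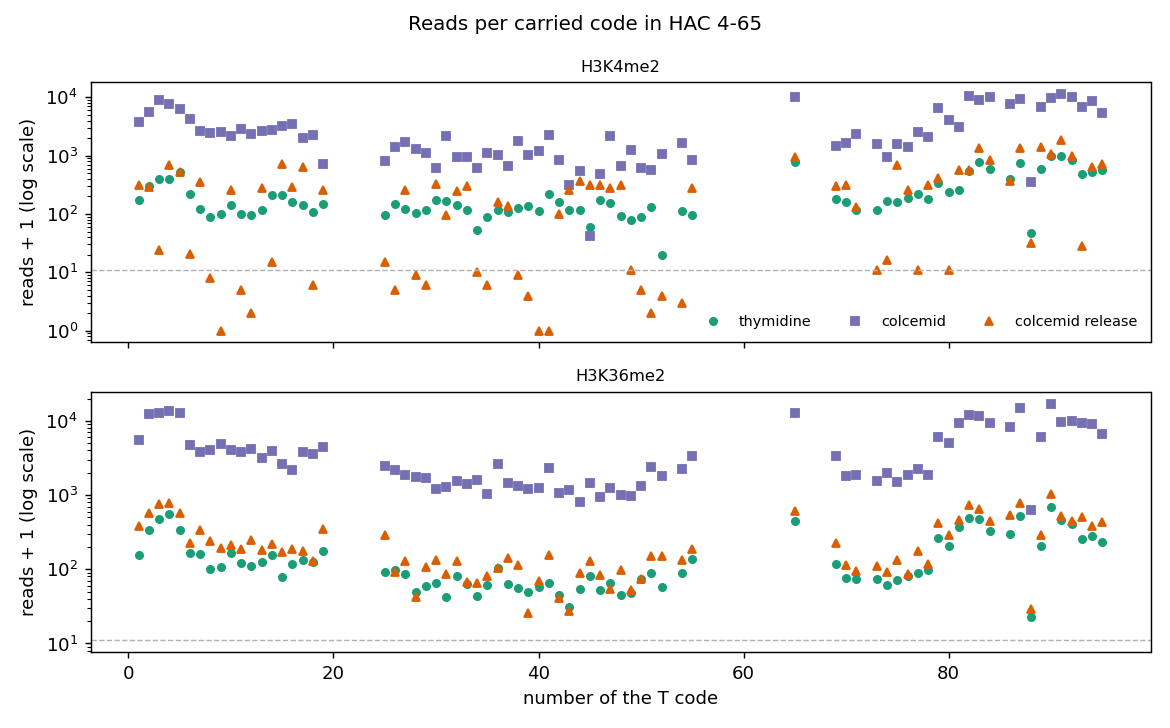
Reads plus 1 on each carried T code of HAC 4-65 (log axis) against the code number, for H3K4me2 (top) and H3K36me2 (bottom) in thymidine, colcemid and release cells, with 1 point per code and library and a dashed line at 10 reads. After release the H3K4me2 reads fall into a group of 29 codes with 0 to 31 reads and a group of 46 codes with 96 to 1877 reads, while the H3K36me2 reads of the same cells form 1 band.

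Of both marks, fewer reads fell on CenU relative to NCU repeats in metaphase than at G1/S, in both lines. For H3K36me2 in HAC 1-20 the ratio of T to L reads was 0.946 after thymidine, 0.496 in colcemid and 0.649 after release. It was thus 1.91-fold lower in metaphase than at G1/S and then rose 1.31-fold, against a 1.17-fold difference between untreated (1.37) and siControl (1.17) cells. The H3K36me2 ratio of HAC 4-65 was 0.851, 0.639 and 0.864 in the same order, a 1.33-fold fall and a 1.35-fold rise, with 0.863 in untreated and 0.827 in siControl cells. H3K36me2 after release was thus back at its thymidine value in HAC 4-65 and not in HAC 1-20.

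H3K4me2 showed the same order in HAC 1-20, with a T to L ratio of 0.433 after thymidine, 0.287 in colcemid and 0.356 after release. The fall was 1.51-fold and the rise 1.24-fold, while untreated (0.583) and siControl (0.576) cells differed 1.01-fold. The H3K4me2 ratio of HAC 4-65 was 0.489, 0.456 and 0.678. Its 1.07-fold fall and 1.48-fold rise were both smaller than the 1.52-fold difference between untreated (0.257) and siControl (0.391) cells, so neither stood out from that background. The rise in HAC 4-65 also rested on the release library that stood apart. Over its 46 well-read T codes the log2 rise was 0.98 in place of 0.57. Picking codes by their release reads leaves out codes that fell, and so raises this value. The mean over all carried codes gave a log2 change of -0.78 in place of a rise. As means over codes the log2 fall in HAC 4-65 was -0.33 in place of -0.10, and the rise in HAC 1-20 was 0.19 in place of 0.31.

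The fall in metaphase was seen with all 7 antibodies. T over L fell from thymidine to colcemid in 14 of 14 pairs of line and antibody, by a median of 0.85 on the log2 scale, and rose from colcemid to release in 11 of 14. The 4 falls of H3K4me2 and H3K36me2, by 0.59, 0.93, 0.10 and 0.41, are among these 14 and included the smallest, and a difference between antibodies was not tested. From untreated to siControl cells T over L fell in 5 pairs and rose in 9. The median change was 0.28 there, against 0.43 from colcemid to release. The files hold no recovery of input, so a drop on CenU repeats and a gain on NCU repeats cannot be told apart.

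**Figure D2:**
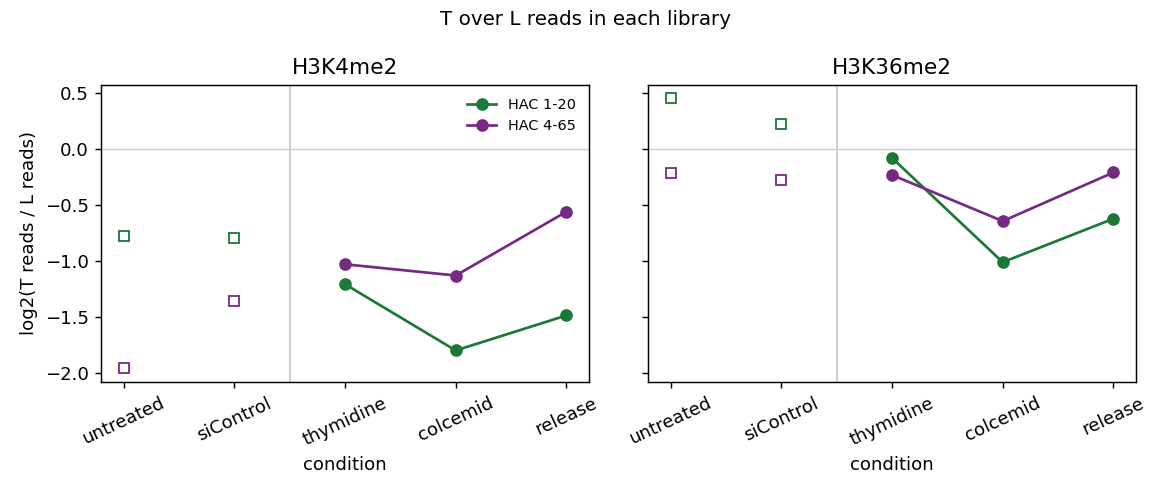
Log2 ratio of T to L reads in each library of H3K4me2 (left) and H3K36me2 (right), with open squares for untreated and siControl cells and joined circles for thymidine, colcemid and release cells, 1 library per point. In both lines and for both marks the colcemid point is the lowest of the 3 joined points, by 0.10 to 0.93 below thymidine.

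Within the CenU repeats, the profile over the codes correlated more closely between cell cycle conditions for H3K36me2 than for H3K4me2. The H3K4me2 libraries also scattered more on L codes, with a median SD of 0.51 over 6 libraries against 0.25 for H3K36me2. The part of this scatter in the difference was not tested. A high r also leaves room for the shifts between dense and sparse codes given below. Pearson's r of log2 code shares between thymidine and colcemid was 0.87 for H3K36me2 in HAC 1-20 (61 codes) and 0.97 in HAC 4-65 (75 codes), and between colcemid and release it was 0.94 and 0.93. For H3K4me2 the same values were 0.61, 0.80, 0.37 and 0.31, the last of which was 0.62 over the 46 well-read codes. Codes of 1 library share its depth and their copy number, so these values are a description only. Untreated and siControl cells had an H3K36me2 r of 0.86 in HAC 1-20 and 0.99 in HAC 4-65, where the HAC 1-20 value rests on an untreated library with a median of 39 reads per carried code. The H3K4me2 values of untreated against siControl cells were 0.66 and 0.88, above each cell cycle value of the line. Among the 7 antibodies H3K36me2 ranked 2 or 3 by r in each line and step, beside CENP-A and H3K9me3, and H3K4me2 ranked 4 to 6, beside the other euchromatic marks.

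**Figure D3:**
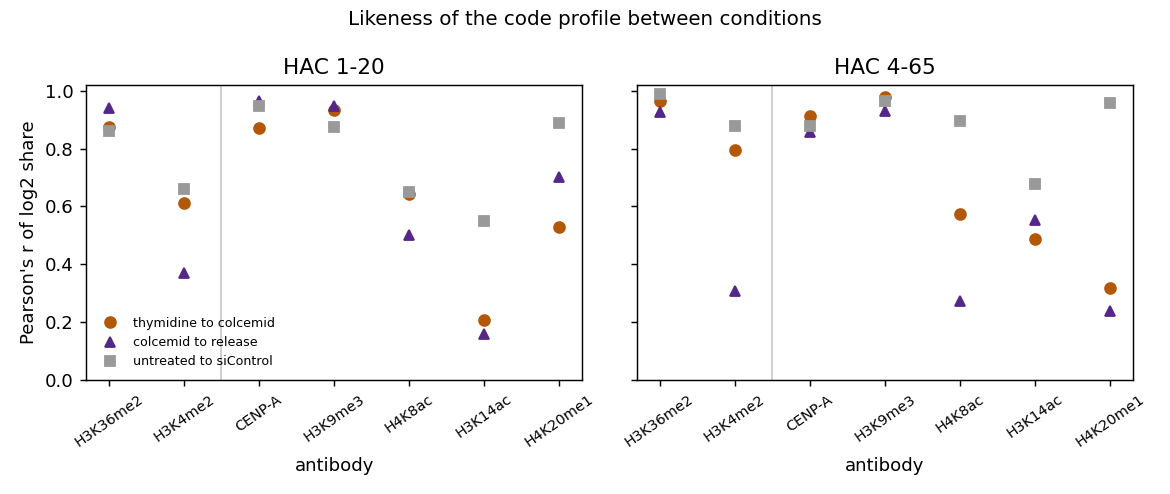
Pearson's r of the log2 share of T reads over the carried codes (61 in HAC 1-20, left, and 75 in HAC 4-65, right) for each antibody, with circles for thymidine to colcemid, triangles for colcemid to release and squares for untreated to siControl, 1 pair of libraries per point. H3K36me2 lies between 0.86 and 0.99 in every pair, and H3K4me2 falls to 0.37 and 0.31 from colcemid to release.

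From thymidine to colcemid the H3K36me2 share of T reads changed by 2-fold or more at few codes. In HAC 1-20 no code rose (0%) and 7 of 61 fell (11.5%), and all 7 were dense codes. Between untreated and siControl cells 4 codes rose (6.56%) and 1 fell (1.64%) past the same fold. In HAC 4-65 no code passed it in either direction (0%), and none did between untreated and siControl cells. Of H3K4me2, 3 codes rose (4.92%) and 8 fell (13.1%) in HAC 1-20, and 3 rose (4%) and 11 fell (14.7%) in HAC 4-65. Of the codes that fell, 4 were dense and 4 middle in HAC 1-20, and 9 were dense, 1 middle and 1 sparse in HAC 4-65. The H3K4me2 background was 9 codes up (14.8%) and none down (0%) in HAC 1-20, and 5 up (6.67%) and 4 down (5.33%) in HAC 4-65.

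From colcemid to release H3K36me2 again moved at few codes, 1 up (1.64%) and none down (0%) in HAC 1-20, and 1 up (1.33%) and 3 down (4%) in HAC 4-65. H3K4me2 rose at 9 codes (14.8%) and fell at 9 (14.8%) in HAC 1-20. In HAC 4-65 it rose at 16 codes (21.3%) and fell at 30 (40%), and 18 of these changes were at the 46 well-read codes. Where both libraries had at least 100 reads (43 codes), 15 rose and 1 fell. Those 15 were 9 of 12 dense, 4 of 18 middle and 2 of 13 sparse codes. This limit too leaves out codes with few reads after release, and so favours rises. Set directly against thymidine, the release libraries had 5 codes up (8.2%) and 13 down (21.3%) for H3K4me2 and none up (0%) and 2 down (3.28%) for H3K36me2 in HAC 1-20. The same step in HAC 4-65 had 8 up (10.7%) and 30 down (40%) for H3K4me2, of which 8 and 2 were among the 46 codes, and 1 in each direction (1.33%) for H3K36me2.

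In metaphase the CENP-A-dense codes lost share of both marks relative to the sparse codes, and after release the medians moved back. For H3K36me2 in HAC 1-20 the share fell at 20 of 20 dense codes and rose at 17 of 20 sparse codes, with median log2 changes of -0.88 and 0.41. Dense minus sparse was -1.29 (95% counting interval -1.33 to -1.25), against 0.09 between untreated and siControl cells. In HAC 4-65 the H3K36me2 share fell at 20 of 25 dense and 13 of 25 sparse codes. There dense minus sparse was -0.27 (-0.36 to -0.18), against 0.00 in the background. Counting intervals cover counting error only, and reads of a PCR without molecular identifiers are not separate molecules. The untreated libraries of both marks also entered the choice of dense and sparse codes, so the background of dense minus sparse changes is not independent of that choice.

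H3K4me2 went the same way, and here HAC 4-65 changed more. In HAC 1-20 the share fell at 14 of 20 dense codes and rose at 15 of 20 sparse codes, a dense minus sparse change of -0.64 (-0.68 to -0.61), against 0.28 in the background. In HAC 4-65 it fell at 21 of 25 dense and rose at 17 of 25 sparse codes, a change of -1.34 (-1.42 to -1.26), against -0.47 in the background. So the larger of the changes was that of H3K36me2 in HAC 1-20 and that of H3K4me2 in HAC 4-65.

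After release the dense codes regained share in HAC 1-20, where H3K4me2 rose at 15 and H3K36me2 at 17 of 20 dense codes and at 7 and 6 of 20 sparse codes. In HAC 4-65 each mark rose at 13 of 25 dense codes and fell at 12, while H3K4me2 rose at 7 and H3K36me2 at 13 of 25 sparse codes. Dense minus sparse from colcemid to release was 0.83 (0.79 to 0.87) for H3K4me2 and 0.48 (0.44 to 0.53) for H3K36me2 in HAC 1-20. In HAC 4-65 it was 1.17 (0.82 to 1.52) for H3K4me2 and 0.21 (0.13 to 0.28) for H3K36me2. Over the 46 well-read codes the H3K4me2 value of HAC 4-65 was 1.57, with a rise at 13 of 15 dense and 7 of 13 sparse codes. The choice of these codes by their release reads favours rises in both groups. With dense and sparse codes chosen without H3K4me2 and H3K36me2 in the CENP-A density, the HAC 4-65 values were 0.10 and -0.07, so the return in this line depended on how the codes were chosen. For the other 5 antibodies dense minus sparse fell in 9 of 10 pairs of line and antibody from thymidine to colcemid and rose in 8 of 10 from colcemid to release. From untreated to siControl cells it also fell in 8 of 10, so the count of falls was near that background. The median changes were -0.64, 0.52 and -0.26 in the same order.

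**Figure D4:**
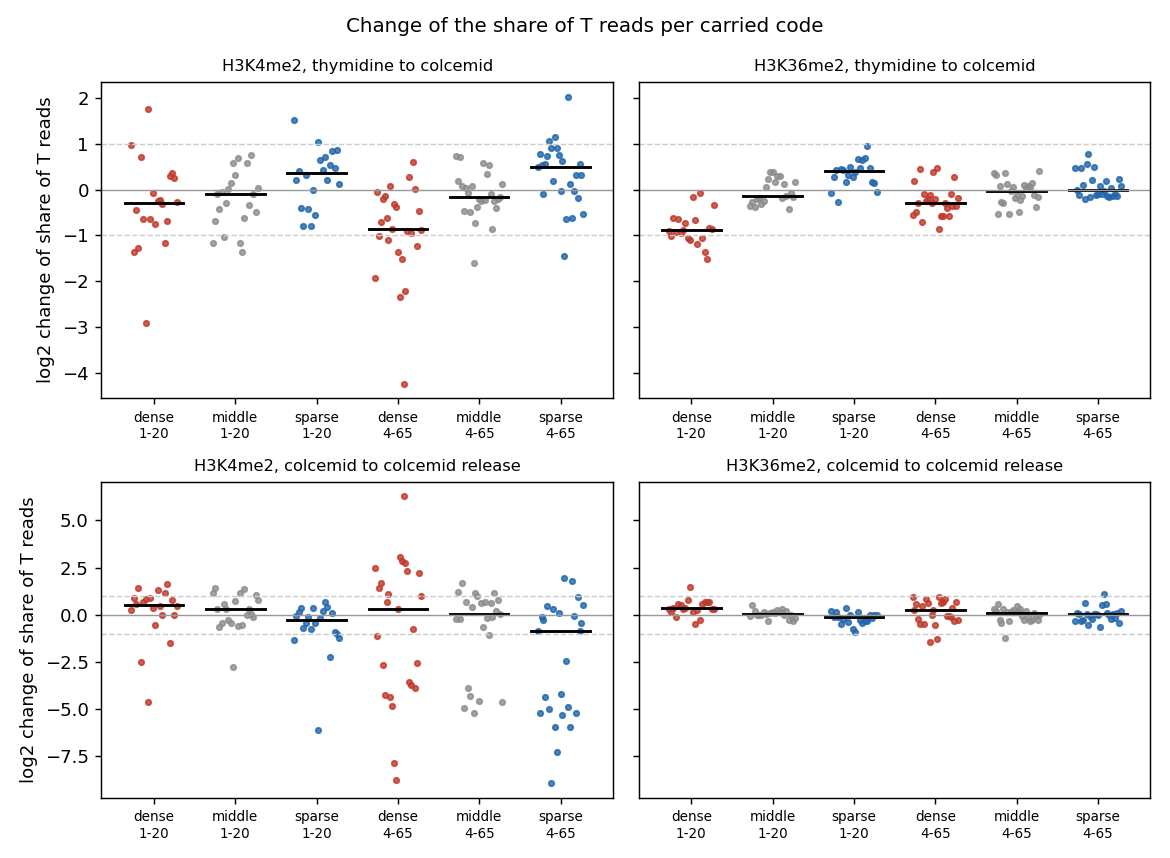
Log2 change of the share of T reads of each carried code from thymidine to colcemid (top) and from colcemid to release (bottom) for H3K4me2 (left) and H3K36me2 (right), with 1 point per code, in dense, middle and sparse codes of HAC 1-20 and HAC 4-65, black bars at the medians and dashed lines at a 2-fold change. H3K36me2 points stay closer to 0 than H3K4me2 points, and all 20 dense codes of HAC 1-20 lie below 0 for H3K36me2 from thymidine to colcemid.

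The codes that changed most differed between the marks and between the lines, and are ranked here among those with at least 100 reads in both libraries of a step. T116, a dense code, had the largest H3K36me2 fall in HAC 1-20: its share was 1.20% after thymidine, 0.419% in colcemid and 0.673% after release, while its H3K4me2 share was 2.25%, 2.77% and 0.994%. T115 and T112, dense codes of the same run, followed in H3K36me2, with log2 falls in colcemid of -1.36 and -1.19. T082, another dense code, had the largest H3K36me2 rise after release, from 0.400% to 1.11%. Sparse codes T108, T107 and T104 had the largest H3K36me2 rises in colcemid, with log2 changes of 0.95, 0.69 and 0.66.

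The largest H3K4me2 moves in HAC 1-20 were at single codes. The release library of this line and mark scattered with SDs of 1.13 over T codes and 0.62 over L codes. After thymidine the SDs were 0.48 and 0.37, and single moves were not tested against this scatter. T080, a dense code, held 0.547%, 1.85% and 0.0764% of T reads after thymidine, in colcemid and after release, on 646, 3026 and 160 reads. It thus rose 3.39-fold and then fell 24.2-fold. T078, also dense and 2 code numbers away, went the other way, with 1.52%, 0.203% and 0.360%. T065, a sparse code, rose from 1.82% to 5.22% in colcemid, where it was the richest code, and fell back to 2.07%. The H3K36me2 shares of T065 in the same cells were 4.68%, 4.45% and 5.14%, among the highest of the line in each condition. T115, T069 and T075 had the largest H3K4me2 rises after release, with log2 changes of 1.63, 1.40 and 1.40. Among codes above the read limit the largest falls beside T080 were those of T090, a middle code (-2.78), and T076, a dense code (-2.52). T102, a sparse code named after its values were seen, lay below the limit with 41 reads after release and fell from 1.37% to 0.0196%.

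In HAC 4-65, 8 of the 11 codes whose H3K4me2 share fell past 2-fold in colcemid lay in the run T030 to T050. T043, T046 and T030, all dense, had the largest falls in colcemid among codes with at least 100 reads. T043 held 0.634% after thymidine, 0.125% in colcemid and 1.06% after release, on 118, 310 and 253 reads. T046 held 0.914%, 0.199% and 1.33%, and T044, next after T043 in the rise after release, 0.623%, 0.219% and 1.56%. The run T030 to T050 together held 13.95% of H3K4me2 T reads after thymidine, 8.56% in colcemid and 13.6% after release. T045, named after its values were seen, had 41 reads in colcemid, 0.0165% of T reads, between 58 and 308 reads in the thymidine and release libraries.

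In the CENP-A-poor run T001 to T014 of HAC 4-65, H3K4me2 went the opposite way in metaphase. The run rose from 16.0% of T reads after thymidine to 23.2% in colcemid, with a median log2 change of 0.74 over its 14 codes. From untreated to siControl cells the median change of the run was 0.51, in the same direction. At 2-fold or more, 2 of its codes rose in colcemid and 3 in that background. Among codes with at least 100 reads T009, T003 and T013 had the largest rises of the line in colcemid (0.91, 0.78 and 0.76). After release the run held 11.6%, and T009 had 0 reads and T003 had 23, both among the 29 codes with few reads. H3K36me2 at T009 held 0.853%, 1.46% and 1.01%, the largest H3K36me2 rise of the line in colcemid among the 37 codes with at least 100 reads. The largest H3K36me2 rise after release was that of T025, from 0.724% to 1.53%.

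The richest codes were stable for H3K36me2. T090 held 5.48%, 5.02% and 5.44% of H3K36me2 T reads in HAC 4-65, and T065 held the highest mean share in HAC 1-20. For H3K4me2 the highest mean shares were those of T091 in HAC 4-65, with 5.27%, 4.57% and 7.83%, and T066 in HAC 1-20, with 3.07%, 3.57% and 3.40%. T090 and T091 are middle codes of adjacent number, and in HAC 4-65 each held at least 2.77% of T reads for both marks after thymidine, in colcemid and after release.

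The ratio of the 2 marks at a code is free of copy number, which is the same in both libraries of a line. It was taken as log2 of H3K4me2 over H3K36me2 reads, each over the L reads of its library. Its median over the codes was below 0 in all 6 pairs, that is, relative to NCU repeats CenU repeats had less H3K4me2 than H3K36me2. In HAC 1-20 it was -1.13 after thymidine, -0.71 in colcemid and -0.70 after release, with quartiles of -1.56 and -0.56, -1.32 and -0.20, and -1.41 and -0.26. HAC 4-65 had medians of -0.76, -0.54 and -0.63. The ratio was above 0 at 3, 12 and 13 of 61 codes in HAC 1-20 and at 10, 15 and 25 of 75 codes in HAC 4-65. The rise from thymidine to colcemid, 0.42 in HAC 1-20 and 0.23 in HAC 4-65, compares with 0.13 and 0.75 between untreated and siControl cells, so it exceeded that background in HAC 1-20 only. Scaled by T reads, the 6 medians lay between -0.28 and 0.17, and this sets the level but not the pattern over codes. Over the 46 well-read codes the release value of HAC 4-65 was 0.10, and the 25 codes above 0 were all among them.

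The ratio was higher at dense than at sparse codes in all 6 pairs. In HAC 1-20 dense minus sparse was 0.92 (0.89 to 0.95) after thymidine, 1.36 (1.31 to 1.41) in colcemid and 1.45 (1.41 to 1.49) after release. After thymidine 17 of 20 dense codes lay above the median of the sparse codes, and in colcemid 19 of 20 did. HAC 4-65 had 1.24 (1.13 to 1.35) after thymidine, 0.16 (0.13 to 0.20) in colcemid and 1.42 (1.06 to 1.78) after release. Of 25 dense codes, 24 lay above the sparse median after thymidine and 15 in colcemid, so the groups nearly came apart at G1/S and overlapped in metaphase. Over the 46 well-read codes the release value was 1.05, and it was 0.60 with dense codes chosen without these 2 marks and 2.73 with codes carried at 0.2%. The unsynchronised cells had 2.16 (untreated) and 2.14 (siControl) in HAC 1-20, and 1.52 and 0.97 in HAC 4-65, but the untreated libraries also entered the choice of dense codes.

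From thymidine to colcemid this difference rose by 0.44 in HAC 1-20 and fell by 1.08 in HAC 4-65, while it changed by -0.02 and -0.54 between untreated and siControl cells. In HAC 1-20 the dense codes lost more H3K36me2 than H3K4me2 share, and in HAC 4-65 more H3K4me2 than H3K36me2. The difference between the lines was not tested, with 1 library each. The HAC 4-65 thymidine value rests on 2 shallow libraries, where a limit of 100 reads in both leaves 1 dense and 18 sparse codes.

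**Figure D5:**
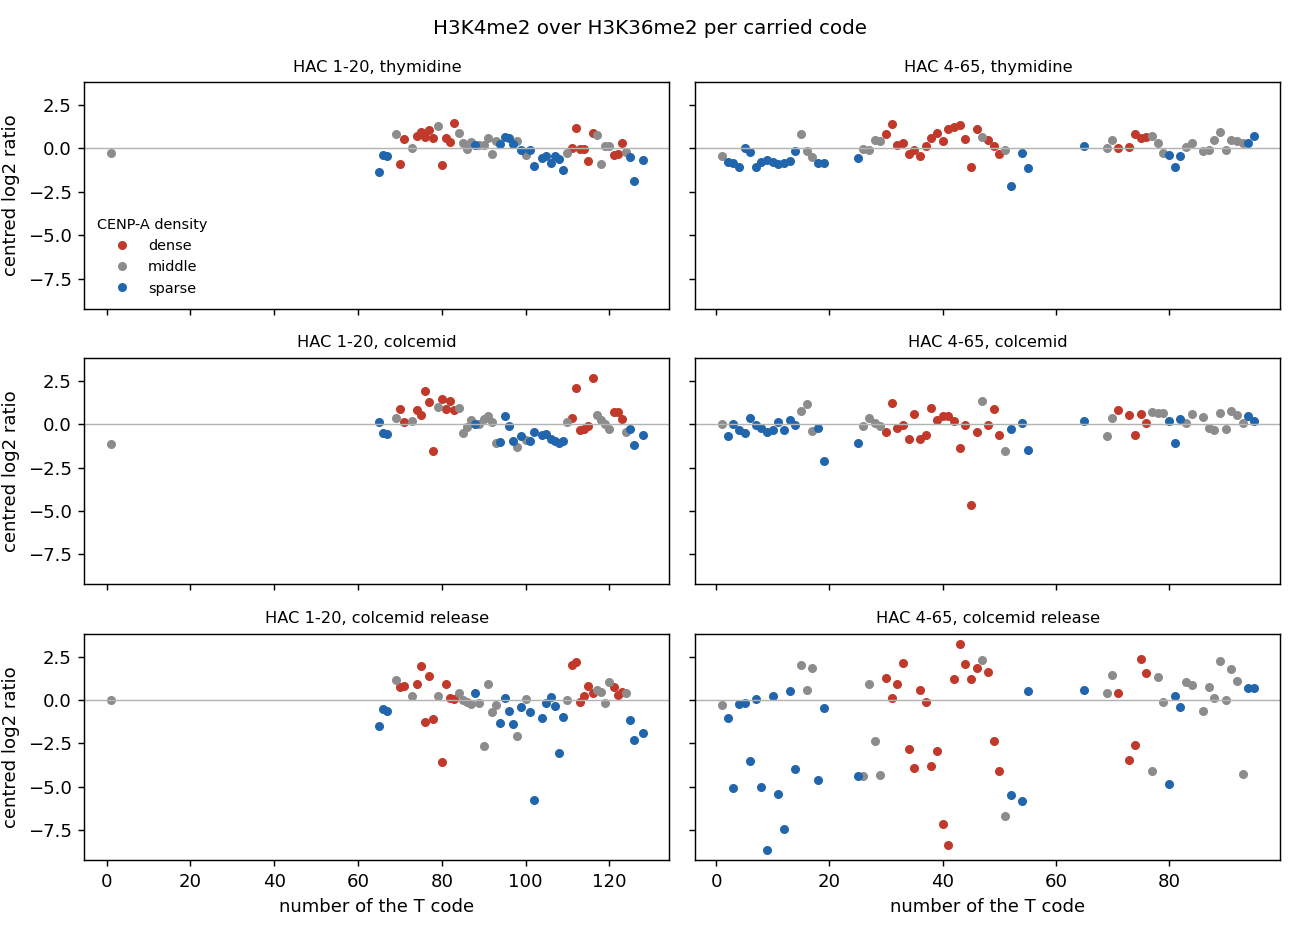
Log2 ratio of H3K4me2 to H3K36me2 per carried code, centred on the median of the line's carried codes, against the code number, in HAC 1-20 (left) and HAC 4-65 (right) after thymidine (top), in colcemid (middle) and after release (bottom), with dense codes in red, middle in grey and sparse in blue. In HAC 4-65 the red and blue codes separate after thymidine, lie at about the same level in colcemid, and spread down to -8.64 after release.

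The ratio differed between runs of code numbers, more so in some conditions than in others. Code numbers give the order in the introduced DNA, which the paper reports was rearranged in the HACs, so they are not positions along a HAC. After thymidine in HAC 4-65 the median of the centred ratio was -0.79 over T001 to T014 (14 codes, 13 of them sparse) and 0.46 over T030 to T050 (21 codes, 20 of them dense). In colcemid these runs were at -0.13 and -0.07, while T084 to T093, which holds no dense or sparse code, stayed at 0.41 after 0.28. In HAC 1-20 the run T065 to T083 was at 0.57, 0.78 and 0.21 in the 3 conditions, and T094 to T110 at -0.33, -0.87 and -0.68. The ratios of codes of adjacent number had r = 0.56 over 68 pairs after thymidine in HAC 4-65, 0.03 in colcemid and 0.24 after release. The background r of this line was 0.67 in untreated and 0.36 in siControl cells, so the thymidine value lay between them. In HAC 1-20 the same r was 0.26, 0.39 and 0.14 over 55 pairs, against 0.66 in untreated and 0.67 in siControl cells.

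Where each mark had 100 reads or more on a code, the highest ratios in HAC 1-20 were at dense codes, with the exception of T079, a middle code. They were at T083, T079 and T112 after thymidine (centred log2 ratios of 1.47, 1.26 and 1.19), at T116, T112 and T076 in colcemid (2.64, 2.07 and 1.90) and at T112, T111 and T075 after release (2.19, 2.02 and 1.96). T112 was among the 3 highest in each condition. The lowest were at T126, T065 and T109, all sparse, after thymidine (-1.86, -1.36 and -1.27), at T078, T098 and T126 in colcemid, and at T080, T108 and T090 after release (-3.58, -3.08 and -2.63). T126 lay at -1.86, -1.22 and -2.28 in the 3 conditions. Dense codes T078 and T080 thus stood at the bottom of these codes in 1 condition each, and T102, below the read limit, lay at -5.77 after release.

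In HAC 4-65 the limit of 100 reads left 33 codes after thymidine, 74 in colcemid and 36 after release. After thymidine only 1 dense code was left. After release the limit left out codes with few H3K4me2 reads, among them those of lowest ratio, down to -8.64. The ranks after thymidine and after release thus depend on the limit. The highest ratios were at T089, T095 and T091 after thymidine, at T047, T031 and T016 in colcemid (1.32, 1.24 and 1.13) and at T075, T089 and T015 after release (2.35, 2.27 and 2.00). The lowest were at T081, T004 and T007 after thymidine (-1.10, -1.07 and -1.06), at T019, T051 and T055 in colcemid (-2.13, -1.57 and -1.51) and at T002, T086 and T019 after release. T031, below the limit after thymidine with 41 H3K36me2 reads, had a ratio of 1.40 there.

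The count of codes whose centred ratio changed by 2-fold or more was highest in HAC 4-65 after release. From thymidine to colcemid it rose at 8 codes (13.1%) and fell at 5 (8.2%) in HAC 1-20, and rose at 4 (5.33%) and fell at 8 (10.7%) in HAC 4-65. Of the 8 that rose in HAC 1-20, 6 were dense, and of the 8 that fell in HAC 4-65, 6 were dense. Between untreated and siControl cells 3 codes rose (4.92%) and 2 fell (3.28%) in HAC 1-20, and 4 rose (5.33%) and 6 fell (8%) in HAC 4-65. From colcemid to release 5 rose (8.2%) and 10 fell (16.4%) in HAC 1-20. In HAC 4-65 21 rose (28%) and 30 fell (40%), on the release library that stood apart, and over its 46 well-read codes, centred on their own median, 9 rose and 8 fell. From thymidine to release 7 rose (11.5%) and 13 fell (21.3%) in HAC 1-20, and 18 rose (24%) and 29 fell (38.7%) in HAC 4-65, where 7 rose and 2 fell over the 46 codes.

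The spread of the ratio over T codes can be set beside that over L codes, which lie on repeats whose CENP-B boxes are mutated. In HAC 1-20 the SD over T codes was 0.69, 0.88 and 1.35 after thymidine, in colcemid and after release, and over 96 L codes 0.36, 0.31 and 0.64. In HAC 4-65 it was 0.69, 0.85 and 2.97 over T codes, and 0.54, 0.50 and 2.54 over 95 L codes. T codes thus varied more than L codes in each pair. Over the 46 well-read codes the release SD of HAC 4-65 was 0.93.

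The same code did not have the same ratio in the 2 lines. Over the 27 codes that both lines carried, Pearson's r of the ratio between the lines was 0.13 after thymidine, -0.10 in colcemid and 0.19 after release. Centred within each line, 4 codes were at least 2-fold higher and 5 at least 2-fold lower in HAC 4-65 than in HAC 1-20 in colcemid, and 2 and 3 after thymidine.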

How the data were processed

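ChIP libraries of H3K4me2 and H3K36me2 from lines 1-20 and 4-65 were analysed. Per the labels and the study's methods, cells were fixed in formaldehyde, their chromatin was sonicated, and codes were amplified in a competitive PCR with common primers before short-read sequencing. Trimming by the authors used cutadapt 4.0. Bowtie assigned reads to codes, and the deposited values are raw read counts per code from SAMtools, with no normalisation. Such counts grow with copy number and with PCR amplification. Unmatched reads, 6.44% to 10.2%, and the study's scaling by qPCR recovery were not used. The files list 128 T and 384 L codes. Code sequences came from the study's supplementary tables.

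Groups came from the labels, with 1 library each and no test. Shares and ratios used reads + 0.5 on the log2 scale. The T share of a library had an exact (Clopper-Pearson) 95% interval 0.191 to 1.19 percentage points wide. Intervals of medians came from the counting error of the mean log2 over codes, with 95% coverage. CENP-A density was log2 CENP-A minus the mean log2 reads of 6 marks in untreated cells. Dense and sparse were the highest and lowest 1 in 3 carried codes. Named codes were, among those with at least 100 reads in both libraries, the 3 highest and 3 lowest ratios per line and condition and the 3 largest rises and falls of share per line, mark and step, with the richest code per line and mark, T001 and T072. The codes, groups and runs were chosen with earlier results of these data known. Scripts ran in Python 3.11 with numpy, pandas and scipy and were tested on simulated data. Alternatives for the reference, the combination of codes, the density, low counts, the pseudocount and the carried codes were computed.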

Additional observations from a re-analysis of the deposited data

Results flagged for a closer look

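The change of the H3K4me2 over H3K36me2 ratio at dense minus sparse codes from thymidine to colcemid had opposite directions in the lines, 0.44 in HAC 1-20 and -1.08 in HAC 4-65. Each counting interval left out 0, but with 1 library per group the difference between the lines was not tested. The direction was the same in each line with the 7 alternatives run. They gave 0.32 to 0.59 in HAC 1-20 and -0.07 to -1.07 in HAC 4-65, where the value nearest 0 came from the limit of 100 reads, which left 1 dense code after thymidine, and the next was -0.67, from summed reads. The depth of the libraries moved with the line: the HAC 4-65 thymidine libraries had 56636 and 27049 reads, those of HAC 1-20 had 391305 and 474011, and the part of depth in the result was not tested.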

How the results depend on the processing

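No paired analysis was possible because the results come from no test and every group had 1 library, with no replicate number in the labels to pair on. Leaving out a replicate was not possible either. Over 36 values and 169 alternatives, 89 alternatives stayed within the counting interval (or within 1.5 times, for counts of codes), 73 moved beyond it with the same direction and 7 changed sign. Whether the moves have a common cause was not tested.

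T over L changes, summed in the main value, were for H3K4me2 in HAC 1-20 -0.67 then 0.48 (thymidine to colcemid, then colcemid to release) as a median over codes and -0.69 then 0.19 as a mean. For H3K36me2 in HAC 1-20 they were -1.07 then 0.46 and -1.11 then 0.47. In HAC 4-65 they were -0.23 then 0.36 and -0.33 then -0.78 for H3K4me2, and -0.52 then 0.46 and -0.48 then 0.47 for H3K36me2.

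Dense minus sparse changes in HAC 1-20 from thymidine to colcemid were -0.52 (summed reads), -0.60 (mean), -0.50 (split at the median density) and -0.70 (carried at 0.2%) for H3K4me2, and -1.09, -1.19 and -0.93 with the first 3 for H3K36me2. From colcemid to release they were 0.55 (summed reads), 0.71 (split at the median), 0.97 (carried at 0.2%) and 0.70 (codes with at least 100 reads) for H3K4me2, and 0.56 (mean) and 0.29 (split at the median) for H3K36me2. The H3K4me2 change in HAC 4-65 from thymidine to colcemid was -0.96 (summed reads), -1.24 (mean), -0.78 (split at the median), -1.17 (100 reads) and -0.93 (density from 4 marks). From colcemid to release it was 1.64 (mean), 0.65 (split at the median), 2.15 (carried at 0.2%), 1.83 (100 reads) and 0.10 (4 marks). H3K36me2 in HAC 4-65 was at -0.11 from thymidine to colcemid with 100 reads, and from colcemid to release at 0.0948 (mean), 0.59 (100 reads) and -0.0661 (4 marks).

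The ratio at dense minus sparse codes in HAC 1-20 was 0.79 (summed reads), 0.73 (mean) and 0.76 (split at the median) after thymidine, 1.08 (split at the median) in colcemid, and 1.55 (mean), 1.09 (split at the median), 1.28 (4 marks) and 1.31 (100 reads) after release. HAC 4-65 had 0.91 (summed reads), 1.05 (mean), 0.90 (split at the median) and 0.27 (100 reads) after thymidine. In colcemid it was 0.24 (summed reads), 0.30 (4 marks), 0.20 (100 reads) and 0.21 (carried at 0.2%). After release it was 0.71 (split at the median), 0.60 (4 marks), 0.83 (100 reads) and 2.73 (carried at 0.2%). The median ratio over T in place of L reads was 6.59e-05, 0.0814 and 0.17 in HAC 1-20 and 0.0334, -0.0520 and -0.28 in HAC 4-65 after thymidine, in colcemid and after release. With 100 reads in both libraries it was -0.97, -0.52 and -0.0673 in HAC 4-65.

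Codes past 2-fold were 4 in place of 7 for H3K36me2 in HAC 1-20 from thymidine to colcemid when centred on the median code. With 100 reads, 16 in place of 46 and 1 in place of 4 passed it from colcemid to release in HAC 4-65 for H3K4me2 and H3K36me2, where fewer codes were counted.

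For the HAC 4-65 H3K4me2 release library a limit of 50 reads was chosen after its reads were seen, and it selects on those same reads. It gave a T over L change of 0.98, a median ratio of 0.10, a dense minus sparse ratio of 1.05, a dense minus sparse change of 1.57 and 18 codes past 2-fold. Depth limited the HAC 4-65 thymidine and release libraries, where the median carried code had 97 to 260 reads.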
